A study of Homo sapiens with 4 samples.

Results

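Of the BRPF3 binding sites mapped in RKO cells, 671 were found in freely cycling cells and in neither synchronised culture. The series is chromatin immunoprecipitation followed by sequencing (ChIP-seq), with 4 libraries from RKO, an established human colon carcinoma line. A rabbit antibody raised against BRPF3 was used on untreated, asynchronous cells, on cells kept in 0.5 mM mimosine for 22 h, and on cells taken through the same mimosine block, let go for 3 h and then given hydroxyurea (HU) at 3 mM over 1 h 30 min. The last are called HU cells. The fourth library is a rabbit IgG control from the HU condition, and the names of the peak lists give it as the control of all 3. All groups share the line and its growth medium, and each has 1 library. The titles and the antibody field name BRPF3, although another label of those libraries speaks of related BRPF proteins.

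The regions were chosen by the presence or absence of a peak in the deposited lists. Peaks of the 3 lists that overlapped by 1 bp or more on chromosomes 1 to 22 were merged, and merged regions under 8000 bp wide that held a peak of the asynchronous list only were kept. This gave 671 of 13623 merged regions, each made of a single asynchronous peak. The same rule with the lists exchanged gave 1110 HU-only and 32 mimosine-only regions, and 1944 regions held asynchronous and HU peaks without a mimosine peak. Because absence from the other lists chose these regions, their scores and widths are given below as descriptions. No condition had a replicate, so no test was made between conditions, and an absent peak means only that none was called in that library.

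BRPF3 is a scaffold protein of the BRPF family, which also includes BRPF1 and BRD1. It joins a MYST-family acetyltransferase, mainly HBO1 (KAT7), to ING and MEAF6 subunits and directs acetylation to histone H3, a mark found at active promoters and linked to the firing of replication origins. Mimosine holds cells around the start of DNA replication. HU empties the nucleotide pools by blocking ribonucleotide reductase, so that forks started after release stall. Asynchronous cultures instead contain cells of every phase.

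The strongest region of the set lay at chr4:151229980-151233058 (hg19, as are all positions here), where the asynchronous peak spanned 3079 bp. It scored 487, at percentile 45.9 of the asynchronous list. The score is the authors' peak caller value, 10 times the negative base-10 logarithm of a p-value against the IgG library, and the lists start at 50. The nearest HU peak was 229 kb away and the nearest mimosine peak also 229 kb away, so this region stood alone in all 3 lists. It was 1 of 6 regions that scored 200 or more. The runner-up, chr6:144536524-144538771, spanned 2248 bp, scored 233 and lay 63.6 kb from the nearest HU peak. Of the 10 highest-scoring regions, 8 lay 16.3 kb or farther from any HU peak. They included chr14:94576944-94578284 (score 217), chr11:1356806-1358256 (score 213), chr19:51059273-51060472 (score 212), chr22:18008536-18009711 (score 207), chr5:150035618-150036739 (score 198) and chr1:156782840-156784207 (score 193). These ranged from 1122 to 1451 bp in width. The remaining 2 of the 10 sat beside sites that HU cells also held. The region chr21:43359374-43361370 (score 190) was 113 bp from another asynchronous peak and 1.05 kb from an HU peak, and chr4:175199493-175201334 (score 186) was 234 bp from an HU peak.

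Below these, the regions were weak and narrow. Their scores had a median of 65.5, with an interquartile range of 55.7 to 84.2. A score below 60 was carried by 240 regions, 60 to below 75 by 187, 75 to below 100 by 148, and 100 or more by 96. Scores below 100 thus made up 85.7% of the regions, beside 13.0% of all asynchronous peaks. Widths had a median of 966 bp, an interquartile range of 760 to 1282 bp, and extremes of 343 and 3117 bp. Only 4 of the 671 regions were as wide as the median asynchronous peak of 2668 bp. Together they covered 0.718 Mb, or 1.88% of the 38.2 Mb under asynchronous peaks on these chromosomes. The plot of width against score shows them in the lower left corner of the list.

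**Figure D1:**
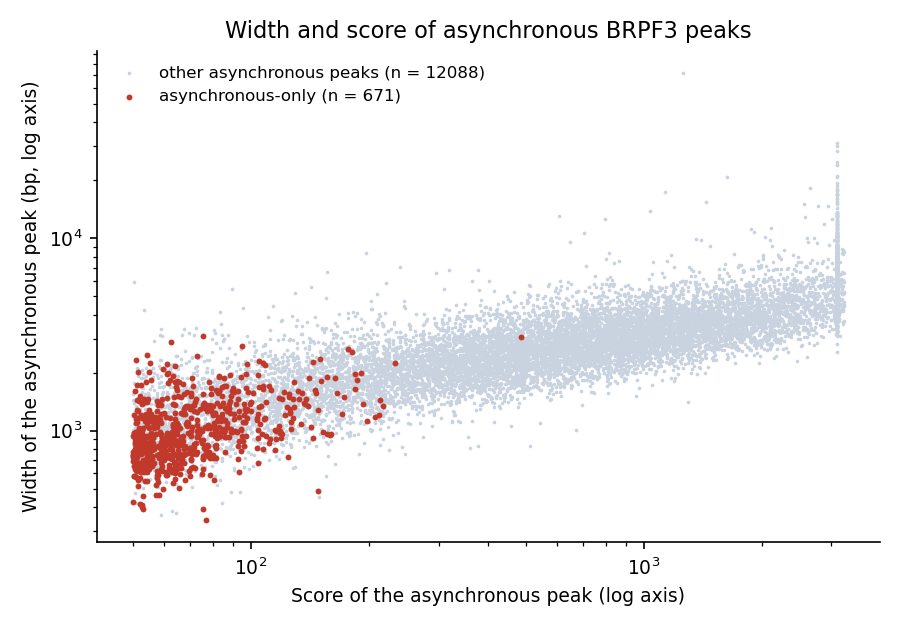
Each point is 1 asynchronous BRPF3 peak on chromosomes 1 to 22, with its score on the x axis and its width in bp on the y axis, both on log axes. Red points are the 671 asynchronous-only regions, which crowd at scores of 50 to 100 and widths near 966 bp, and the red point at 487 is the chromosome 4 region.

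Asynchronous-only regions made up 5.26% of the 12759 asynchronous peaks (exact Clopper-Pearson 95% interval 4.88 to 5.66%). In the other lists, 1110 of 13040 HU peaks (8.51%) and 32 of 11235 mimosine peaks (0.285%) touched no peak of another list. Intervals here and below cover counting error only, and peaks of 1 library are not replicates. The share followed the score. The asynchronous list was cut into 10 equal groups by score. In the lowest group 492 of 1267 peaks were asynchronous-only (38.8%, 36.1 to 41.6%), in the second 157 of 1243 (12.6%, 10.8 to 14.6%) and in the third 21 of 1249 (1.68%, 1.04 to 2.56%). Above the third, the chromosome 4 region was the only one. In the lowest group more peaks had an HU partner alone, 562 of 1267 (44.4%, 41.6 to 47.1%), than had none. The HU peaks in those 562 regions were themselves weak, with a median score of 83.3 at percentile 11.6 of the HU list. A further 9 peaks of the lowest group lay in regions with a mimosine peak and no HU peak.

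**Figure D2:**
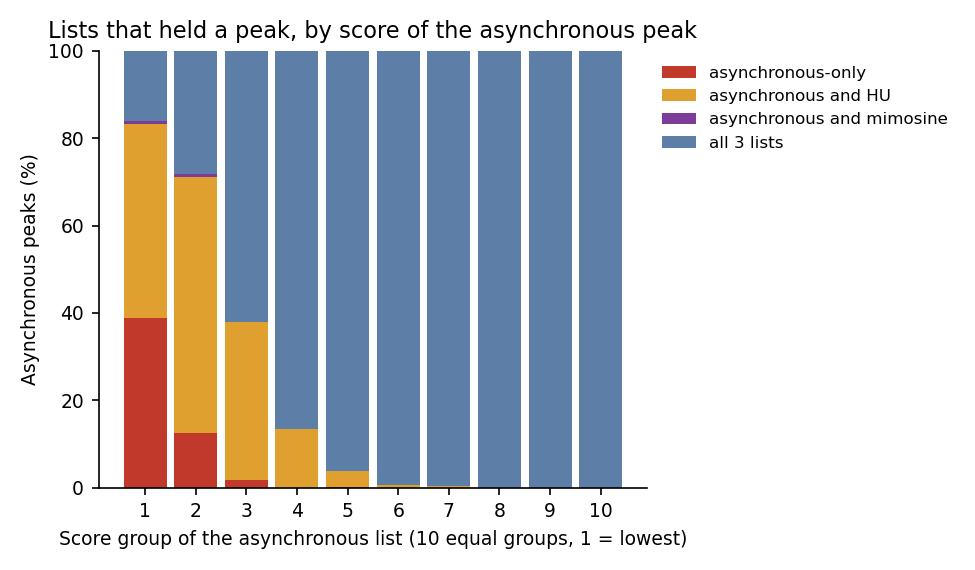
Bars show, for each of 10 equal score groups of the asynchronous list, the percentage of asynchronous peaks on chromosomes 1 to 22 whose merged region held that peak only (red), an HU peak as well (orange), a mimosine peak as well (purple) or peaks of all 3 lists (blue). Red falls from 38.8% in the lowest group to 12.6% and 1.68% in the next, and blue fills the upper groups.

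At equal score, asynchronous-only peaks were narrower than asynchronous peaks that HU cells shared. Between 50 and 60 the median width was 834 bp for 240 asynchronous-only peaks and 1016 bp for 211 peaks of regions shared with HU cells and missing from the mimosine list. Between 60 and 75 the medians were 919 and 1164 bp, between 75 and 100 they were 1116 and 1278 bp, and between 100 and 150 they were 1290 and 1480 bp. The order was thus the same in the 4 score bands, but the interquartile ranges overlapped in each, for example 686 to 1074 bp against 822 to 1375 bp in the lowest. The rule can enter this difference, since a wider peak has more bases that another peak can touch. How much it did was not tested. The narrowest peak of any kind also differed by list, at 343 bp in asynchronous, 141 bp in mimosine and 399 bp in HU cells.

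The regions lay at all distances from the sites of synchronised cells. The gap to the nearest HU peak had a median of 18.3 kb (interquartile range 3.51 to 56.1 kb), and the gap to the nearest mimosine peak 26.1 kb (6.19 to 78.0 kb). Within 5 kb of an HU peak were 197 regions (29.4%, 25.9 to 33.0%), and within 5 kb of a mimosine peak 147 (21.9%, 18.8 to 25.2%). The mimosine list is the shorter, and its peaks are the narrower. The part of either in these gaps was not tested. More than 100 kb from any peak of both other lists were 93 regions, and 8 were more than 1 Mb away. Distance changed little with strength: 72 of 240 regions scoring below 60 (24.3 to 36.2%), 96 of 335 from 60 to below 100 (23.9 to 33.8%) and 31 of 96 at 100 or more (23.1 to 42.6%) lay within 5 kb of another list's peak. HU-only regions gave similar distances, with a median of 15.6 kb to the nearest asynchronous peak and 362 of 1110 within 5 kb of one (32.6%, 29.9 to 35.5%).

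**Figure D3:**
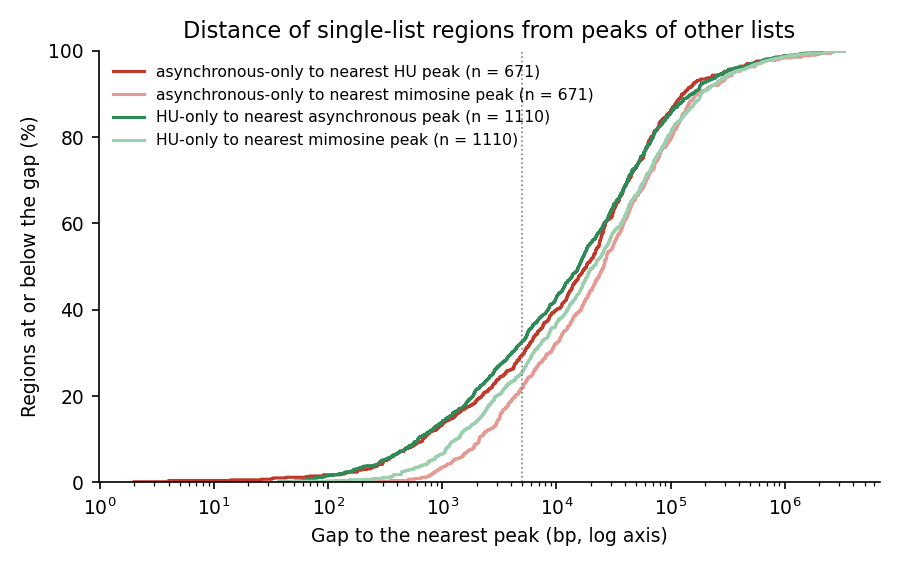
Lines give the cumulative percentage of regions (y axis) whose gap to the nearest peak of the named list is at or below the value on the x axis (bp, log axis), for the 671 asynchronous-only and 1110 HU-only regions. The dotted line marks 5 kb, where 29.4% of asynchronous-only regions have an HU peak and 21.9% a mimosine peak, and the lines to the mimosine list run below the other pair.

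Some regions were separated from another list by a few bases. The smallest gaps were 2 bp at chr2:211341947-211342865, a region of score 119, and 4 bp at both chr22:20304905-20305628 (score 55.9) and chr22:31688015-31688949 (score 63.4), each time to an HU peak. In all, 20 regions lay within 200 bp of another list's peak and 91 within 1 kb. On the other side of the rule, 16 asynchronous peaks overlapped a peak of another list by 200 bp at most. The closest of these, chr1:78247112-78247748 (score 59.9), shared 2 bp with an HU peak of score 574. The next shared 32 bp, at chr12:115106923-115107727 (score 93.8), and 45 bp, at chr19:50002495-50003491 (score 52.1). The width limit removed nothing, because no asynchronous-only region on these chromosomes reached 8000 bp. The widest were chr8:122651167-122654283 (3117 bp, score 75.7), the chromosome 4 region and chr8:80705045-80707948 (2904 bp, score 62.5).

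Apart from asynchronous-only regions themselves, which are taken up below, the larger classes of neighbouring regions were near their shares of all regions. Regions of all 3 lists made up 912 of the 1338 flanking regions (68.2%), against 71.9% of all merged regions. The nearest region of another class was of all 3 lists for 492 regions (73.3%), of asynchronous and HU cells for 114, and HU-only for 60. Where a region of another class lay within 5 kb, the nearest was of all 3 lists in 156 of 201 cases (77.6%). Those neighbours had a median asynchronous score percentile of 83.2 and a median width of 4768 bp, beside 62.1 and 3509 bp over all 9798 regions of that class. Neighbours of HU-only regions were not described in this way. Whether such neighbours are particular to asynchronous-only regions was therefore not tested. The distance to the nearest all-3 region had a median of 24.9 kb, against 39.9 kb for regions of asynchronous and HU cells and 20.6 kb for HU-only regions. Within 5 kb of such a site were 168 of 671 asynchronous-only (95% interval 21.8 to 28.5%), 237 of 1944 asynchronous and HU (10.8 to 13.7%) and 323 of 1110 HU-only regions (26.4 to 31.9%). Within score bands only asynchronous-only peaks and asynchronous and HU peaks were compared. Their median distances were 24.6 and 24.6 kb at 50 to 60, and 26.1 and 33.5 kb at 60 to 75. They were 26.8 and 29.9 kb at 75 to 100, and 19.7 and 41.7 kb at 100 to 150. The share within 5 kb was higher for asynchronous-only peaks in each band. Intervals were separate only at 100 to 150, with shares of 29.2% (19.0 to 41.1%) for asynchronous-only and 11.3% (8.54 to 14.5%) for asynchronous and HU peaks. The shares were 25.8% (20.4 to 31.9%) and 16.1% (11.4 to 21.8%) at 50 to 60, 27.3% (21.0 to 34.3%) and 15.9% (11.5 to 21.2%) at 60 to 75, and 19.6% (13.5 to 26.9%) and 15.1% (11.4 to 19.4%) at 75 to 100. The merging can enter these comparisons. Beside an all-3 site, an asynchronous peak with an HU partner can be merged into that site through either peak. How much it did was not tested. In a wider window the sets were alike: a median of 6 all-3 regions lay within 500 kb of an asynchronous-only, an HU-only, and an asynchronous and HU region, and 7 others within 500 kb of an all-3 region.

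Shared sites beside asynchronous-only regions scored somewhat higher in asynchronous cells. This was looked at after other results were known, in regions with exactly 1 asynchronous and 1 HU peak, both scoring below 3100, the value at which many scores pile up. Over all 10324 such regions the median log2 ratio of the asynchronous to the HU score was 0.01, and 50.8% scored higher in asynchronous cells. Of the 126 that were nearest to an asynchronous-only region and within 5 kb of it, 77 scored higher in asynchronous cells (61.1%, 52.0 to 69.7%), with a median log2 ratio of 0.17. Of the 260 nearest to an HU-only region within 5 kb, 105 did (40.4%, 34.4 to 46.6%), with a median of -0.12. With the distance extended to 50 kb the shares were 55.2% (50.1 to 60.2%) and 43.3% (39.4 to 47.2%). At any distance they were 52.3% (48.2 to 56.3%) and 45.6% (42.4 to 48.8%). Beside asynchronous-only regions, both of these wider intervals include the 50.8% of all such regions. Within 5 kb the interquartile ranges were wider than the shifts, at -0.25 to 0.51 beside asynchronous-only and -0.47 to 0.17 beside HU-only regions. These are the same 2 lists that chose the regions, so the values describe their surroundings and are no separate test of the regions.

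Of the 91 asynchronous-only regions with an HU peak within 1 kb, 13 had an HU-only region at that distance, which is 1.94% of all 671 (1.04 to 3.29%). The closest pair was 142 bp apart on chromosome 7, where an asynchronous peak at chr7:56129248-56130701 (score 54.8) faced an HU peak at chr7:56127122-56129105 (score 99.5). Another, 299 bp apart, was the asynchronous peak chr1:876570-877819 (score 72.7) and the HU peak chr1:875413-876270 (score 66.9). In 104 of 671 cases (15.5%) the next region on at least 1 side was HU-only. Of all flanking regions 7.92% were HU-only, close to the 8.15% that HU-only regions make up of the whole, and 8.22% were asynchronous-only, against 4.93% of the whole. HU-only regions showed the same pattern, with 11.0% of their flanks HU-only and 4.78% asynchronous-only.

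Most asynchronous-only regions were single, with 567 of them between regions of other classes. Another 88 formed 44 pairs with nothing called between them, 12 formed 4 runs of 3, and 4 formed a run of 4. The run of 4 spanned 12.9 kb at chr1:209800765-209813635, with scores of 54.5 to 93.4. A tighter run of 3 covered 4.17 kb at chr5:121310670-121314842, with scores of 50.6 to 184. Another run was spread thin: 3 regions at chr3:164914221-165602672 spanned 688 kb, scored 55.6 to 67.3, and had no HU peak within 2.53 Mb of the first. The most isolated region, chr4:133338098-133338911, spanned 814 bp, scored 69.8 and lay 3.32 Mb from the nearest HU and mimosine peaks.

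The 1 Mb window with most asynchronous-only regions was on chromosome 7, where 7 lay between positions 100041227 and 100804023. Their scores were 107, 68.2, 54.7, 65.4, 84.5, 94.0 and 70.5 in order along the chromosome, and their widths ran from 774 to 2249 bp. The HU list had no peak closer than 1010 bp to any of them and no HU-only region in the window. The window was otherwise rich in shared sites, with 24 regions of all 3 lists and 5 of asynchronous and HU cells. By a separate count, 24 regions of the window had 1 peak in each of the asynchronous and HU lists. They need not be the same as the 24 of all 3 lists. Of them, 17 scored higher in asynchronous cells, with a median log2 ratio of 0.25. A pair of other windows held 6 asynchronous-only regions each and no HU-only region, chr11:65812156-66726138 and chr19:54057864-54711446. The chromosome 7, 11 and 19 windows held 36, 26 and 21 merged regions in all. HU-only regions make up 8.15% of all merged regions. Whether their absence is unusual for windows of so few regions was not tested. On chromosome 11 the shared sites leaned the other way, with 3 of 16 scoring higher in asynchronous cells and a median log2 ratio of -0.18. On chromosome 19 it was 6 of 11, with a median of 0.06.

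**Figure D4:**
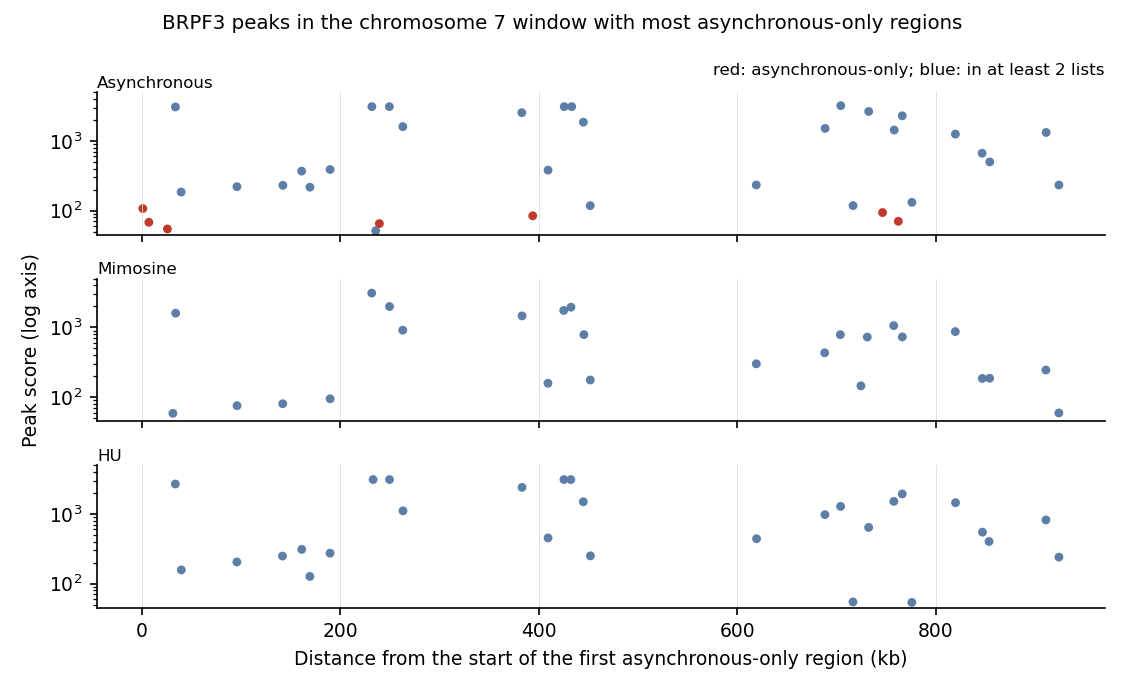
Each point is a peak in the chromosome 7 window, with the distance in kb from the start of the first asynchronous-only region on the x axis and the peak's score on a log y axis, for the asynchronous, mimosine and HU lists from top to bottom. The 7 red asynchronous-only points score 54.7 to 107 and lie among blue points of sites held by at least 2 lists, most of which score higher.

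Every autosome held asynchronous-only regions, from 6 on chromosome 21 to 85 on chromosome 1. Per length, chromosome 19 held most, with 0.932 per Mb between its first and last peak, and chromosome 13 fewest, with 0.0939 per Mb. As a share of asynchronous peaks the range was narrower, from 3.40% on chromosome 10 (18 of 529, 2.03 to 5.32%) to 8.47% on chromosome 4 (42 of 496, 6.17 to 11.3%). The intervals of 21 of the 22 chromosomes included the overall 5.26%, chromosome 4 being the exception. The intervals were not adjusted for the number of chromosomes looked at. Chromosome 4 also had more weak peaks than most, with 23.4% of its asynchronous peaks in the lowest 2 of the 10 score groups. Of those weak peaks 33.6% were asynchronous-only (25.1 to 43.0%), an interval that includes the 25.9% over all autosomes (24.2 to 27.6%).

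Chromosome 9 was the only autosome with more asynchronous-only than HU-only regions, 42 against 34. Over all autosomes the numbers were 671 and 1110, so that asynchronous-only regions made up 37.7% of both (35.4 to 40.0%). On chromosome 9 they made up 55.3% (43.4 to 66.7%), and on chromosomes 10 and 20 they made up 22.8% (14.1 to 33.6%) and 23.6% (13.2 to 37.0%). The surplus on chromosome 9 lay beyond 130 Mb, a border set after the values were seen. There 15 asynchronous-only and 2 HU-only regions were found, and 27 and 32 in the rest of the chromosome. HU peaks were not counted on each side of the border, so the HU-only numbers have no share beside them. Among asynchronous peaks the share was 8.93% beyond 130 Mb (15 of 168, 5.08 to 14.3%) and 6.41% before it (27 of 421, 4.27 to 9.19%), with overlapping intervals. Copy number in each culture was not measured, and its part in these shares was not tested.

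**Figure D5:**
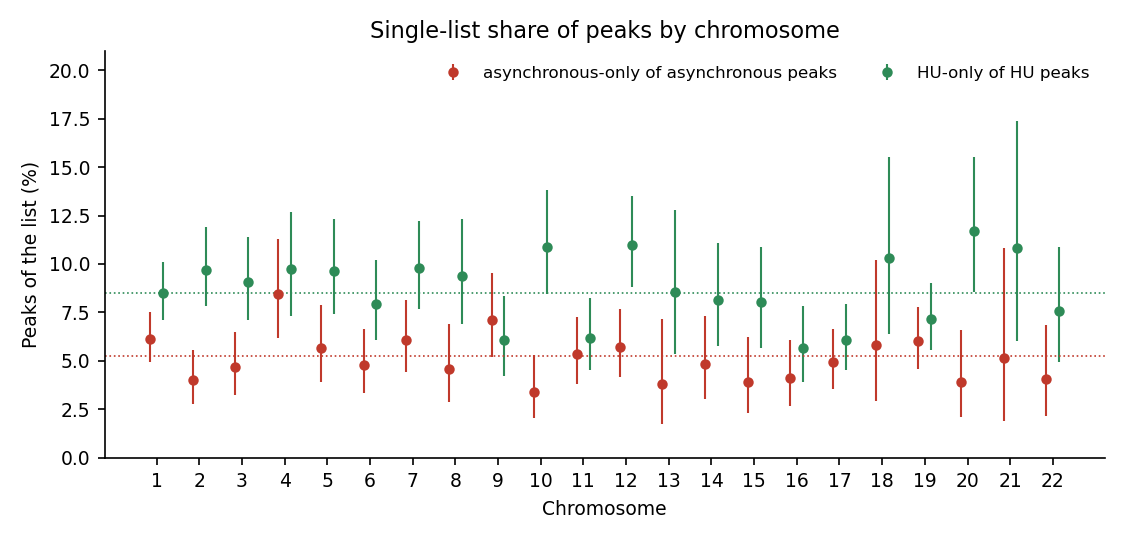
Points give, for each chromosome, the percentage of asynchronous peaks that are asynchronous-only (red) and of HU peaks that are HU-only (green), with exact 95% intervals as bars and the values over all autosomes, 5.26% and 8.51%, as dotted lines. Red lies below green on every chromosome except 9, and the red interval of chromosome 4 is the only one wholly above its line.

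Asynchronous-only and HU-only regions had similar strength within their lists. HU-only peaks had a median score of 65.6 (interquartile range 56.7 to 83.8) at percentile 6.87 of the HU list, against 65.5 at percentile 6.05 for asynchronous-only peaks in theirs. They were wider, with a median of 1112 bp (884 to 1452 bp) against 966 bp, and the HU list as a whole also has wider peaks. Regions of asynchronous and HU cells missing from the mimosine list were stronger, with a median asynchronous score of 119 and a median HU score of 115. Mimosine-only peaks numbered 32 and had a median score of 58.1 and a median width of 410 bp. The IgG control came from HU cells only, and sequencing depth is not known for any library. Whether either moved regions into or out of the asynchronous-only set was not tested.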

How the data were processed

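For each BRPF3 library the authors deposited 1 list of peaks with their position and score, and the list names give the HU IgG library as control. Per the submitters' processing notes, Bowtie 0.12.8, SAMtools, MACS 1.4.0 and bedtools were used; their order and settings are not given in the sources used here. The deposited score was read as 10 times the negative base-10 logarithm of the caller's p-value, because the lists have the layout of that caller's output and no score lies below 50. The notes name hg18 and hg19. Peaks of all 3 lists run past the end of chromosome 1 in hg18 and in GRCh38 but not in hg19, so hg19 is taken as the build; positions count from 1.

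Peaks were merged and classed with NumPy 2.4.6, pandas 2.3.3 and SciPy 1.17.1 under Python 3.11.15, and drawn with matplotlib 3.10.9. A gap is the number of bases between 2 peaks. Percentiles and the 10 score groups were taken over the whole list, chromosomes X and Y included. Shares have exact Clopper-Pearson 95% intervals. Tested on simulated lists made from the 12759 asynchronous peaks, the merging found all 200 planted single-list peaks and called none wrongly, and the 200 gaps came out exactly.

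The regions named are the 10 of highest score, the 3 widest, those with the largest and smallest gaps, those next to the limits of the rule, and the 3 windows of 1 Mb holding most; runs of 3 or more, pairs with HU-only regions and the chromosome 9 segment were added after their values were seen. The rule for the members and these descriptions were chosen with earlier results of these data known. Gene annotation and sequence of the regions were not analysed here, since the gene table used is of GRCh38 and positions were not converted.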

Additional observations from a re-analysis of the deposited data

Results flagged for a closer look

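Chromosome X lay outside the rule, and its peaks entered the values above only through the score percentiles and score groups, which were taken over the whole list. It held 24 asynchronous-only regions among 386 asynchronous peaks (6.22%, exact 95% interval 4.02 to 9.11%), an interval that includes the 5.26% of the autosomes. They are listed because regions of the same kind were found outside the chromosomes described. Their median score was 81.3 and their median width 1060 bp. A single region there was wider than 8000 bp, at 12011 bp. No control list was used here to set these beside.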

How the results depend on the processing

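Of 56 values recomputed (7 results under 8 other settings), 28 stayed within the 95% interval of the main value, or within 1.5 times for the number of regions. Including chromosome X, dropping the width limit and deciding by the HU list alone changed none of the 7. The others follow in the order number of regions, share of asynchronous peaks, median width, median score, median percentile, median gap and share within 5 kb of another list. With a score of 100 or more in all lists they were 445, 4.01%, 1420 bp, 132, 17.4, 30827 bp and 17.3%; of those 445 regions, 96 were asynchronous-only in the full lists and 349 had lost a partner scoring below 100. With mimosine and HU peaks of 100 or more set beside the whole asynchronous list they were 1566, 12.3%, 1128 bp, 76.5, 8.67, 25677 bp and 21.3%. With 5766 top-scoring peaks per list they were 373, 6.57%, 2859 bp, 789, 61.0, 81312 bp and 3.22%, where partners below the limit are removed by construction. With peaks within 1 kb merged, the share was 4.40%, the gap 25803 bp and the share within 5 kb 16.4%, on 561 regions. Under a reciprocal overlap of 50%, which counts overlapping partners at a gap of 0, there were 981 regions, with a share of 7.69%, a width of 1031 bp, a gap of 4244 bp and a share within 5 kb of 51.9%. The lowest of 10 score groups held 73.3% of the regions and the lowest of 20 held 40.5%. A median of 25 peaks of any list lay within 500 kb of a region, 7 within 100 kb and 44 within 1000 kb. The planned share near gene starts was not run. How many reads stand behind a missing peak is not known.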

Other observations

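Asynchronous-only regions were not gathered at chromosome ends. Within 5 Mb of the first or last peak of a chromosome lay 106 of the 671 (15.8%, exact 95% interval 13.1 to 18.8%), beside 15.3% of regions of all 3 lists (14.6 to 16.1%), 13.7% of HU-only regions (11.7 to 15.9%) and 12.2% of regions of asynchronous and HU cells (10.8 to 13.7%). Regions with no all-3 region within 500 kb numbered 27 (4.02%, 2.67 to 5.80%) among asynchronous-only and 321 of 9425 (3.41%, 3.05 to 3.79%) among all-3 regions.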
